A study of Homo sapiens with 54 samples.

Results

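The 31 genes described here repair DNA interstrand crosslinks and the double-strand breaks that arise when such crosslinks are processed. They were chosen by name, from knowledge of the pathway, among the 19970 protein-coding genes of the RefSeq gene table (GRCh38). They comprise the Fanconi anaemia core genes (FANCA, FANCB, FANCC, FANCE, FANCF, FANCG, FANCL, FANCM) with the ubiquitin-conjugating enzyme UBE2T, the FANCD2 and FANCI pair, the incision factors SLX4, ERCC1, ERCC4 and FAN1, the end-resection factors MRE11, RAD50, NBN, RBBP8, EXO1 and BLM, the BRCA group (BRCA1, BARD1, BRIP1, PALB2, BRCA2) and 5 related recombination factors (RAD51B, RAD51C, RAD51D, XRCC2, XRCC3). Open chromatin over these genes was measured by ATAC-seq, in which a transposase cuts accessible DNA, in MDA-MB-231 and PC3, established human breast and prostate cancer lines. Survivors of cisplatin, a platinum compound that links bases within and between strands, were taken 1 day and 10 days after drug removal, and untreated cells of each line were the controls. The 6 groups were MDA-MB-231 day 1, MDA-MB-231 day 10, MDA-MB-231 control, PC3 day 1, PC3 day 10 and PC3 control, with 3 biological replicates each and 1 peak list per replicate, 18 lists in all. Each replicate was split into 3 parts before library construction, giving 54 samples. The treated groups hold only cells that survived, so a shift in which cells are present and a change within cells cannot be told apart, and the labels name no clone or sorting step. The cisplatin dose and the exposure time are not given in the sources used here.

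A crosslink joins both strands of DNA and blocks replication. The Fanconi core complex, with FANCL as its ubiquitin ligase and UBE2T as the conjugating enzyme, marks FANCD2 and FANCI with ubiquitin at stalled forks. SLX4 then brings nucleases such as ERCC4 with ERCC1 to unhook the crosslink, and the broken arm is rebuilt by homologous recombination, in which resection exposes single strands and BRCA1, PALB2 and BRCA2 act on them together with the group that holds RAD51B and XRCC2. Loss of many of these genes can make cells sensitive to cisplatin.

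The measure for each gene was the number of bases under deposited peaks in its body and 10 kb on each side, called covered length, scaled so that all lists have the same total. Changes were fitted with limma on log2(covered length + 500 bp) over 16812 genes, so small windows show a damped change, and a gene is said to be called where its Benjamini-Hochberg adjusted p over all genes was under 0.05. The lists held 82392 to 165535 peaks and covered 54.4 to 82.3 Mb. Every PC3 treated list had more peaks than any PC3 control list, and every MDA-MB-231 treated list had more than any MDA-MB-231 control list. Peak lists carry no counts of reads, so sequencing depth is unknown, and what it contributes was not tested. The 2 lines separated at CDKN2A, which had a gene-end peak in 9 of 9 PC3 lists and 0 of 9 MDA-MB-231 lists, at GATA3, with one in 0 PC3 and 9 MDA-MB-231 lists, and at KLK3 and TWIST1, with one in 9 PC3 and 0 MDA-MB-231 lists. Gene-end peaks of PTPRC, PECAM1 and ALB, markers of blood, endothelial and liver cells, were in 0 lists. CDH5, another endothelial marker, had one in 2 of 9 PC3 lists and 0 of 9 MDA-MB-231 lists, and CD3E had one in all 18.

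Of the 31 genes, 29 had a peak within 1 kb of an annotated gene end, meaning the first or the last base, in all 18 lists, against 57.1% of all genes. Counted at transcription starts instead, 29 of the 31 starts listed for these genes had a peak within 1 kb in all 18 lists, against 53.4% of all starts. Counting all peaks, each PC3 list had 30 genes with a gene-end peak and each MDA-MB-231 list had 29, so the number was the same after treatment as in untreated cells of both lines. With only the 50000 peaks of highest area in each list, the PC3 mean was 30 in control, 28 at day 1 and 23.3 at day 10. The MDA-MB-231 mean stayed at 29 in all 3 groups. With all peaks, the gene that differed between the lines was RBBP8, which encodes CtIP, a factor that starts resection. Its annotated gene end upstream of the listed start, at chr18:22913703-22914237, carried a peak in 9 of 9 PC3 lists and 0 of 9 MDA-MB-231 lists. Its listed start, at chr18:22932807-22934280, was open in all 18 lists. FAN1, a crosslink nuclease, had no peak in any list, and neither did the surrounding 1.94 Mb from 29926088 to 31870610 on chromosome 15, which touches 15 protein-coding genes. Its absence was not read as closed chromatin and FAN1 was left out of the fit, so 30 members were tested. RAD51B had no peak within 1 kb of its listed start, in a gap from 67821144 to 67833305 on chromosome 14. It had one within 1 kb of its first or last annotated base in all 18 lists.

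The sequences upstream of 5 starts are shown because these genes had the smallest adjusted p in any comparison of treated cells with controls among the genes with an entry in the RefSeq promoter table (GRCh38.p14). FANCI ranked among them and is named only. Each line gives the 250 bases before the start, 5′ to 3′ on the gene's strand, in lower case, with matches on either strand to 7 motifs in capitals: TTTGAA (the CHR element of cell cycle genes), CCAAT (NF-Y), GCGCATG (part of the NRF1 site), CCGGAA (ETS factors), GGGCGG (SP1), and TTGGCGC and TTCCCGC (E2F).
ERCC1 (chr19:45423918-45424167, minus strand): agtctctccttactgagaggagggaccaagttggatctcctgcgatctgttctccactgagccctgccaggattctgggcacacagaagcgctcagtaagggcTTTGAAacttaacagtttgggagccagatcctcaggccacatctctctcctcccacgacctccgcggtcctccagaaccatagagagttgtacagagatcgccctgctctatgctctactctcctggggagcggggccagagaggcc
BRCA1 (chr17:43125365-43125614, minus strand): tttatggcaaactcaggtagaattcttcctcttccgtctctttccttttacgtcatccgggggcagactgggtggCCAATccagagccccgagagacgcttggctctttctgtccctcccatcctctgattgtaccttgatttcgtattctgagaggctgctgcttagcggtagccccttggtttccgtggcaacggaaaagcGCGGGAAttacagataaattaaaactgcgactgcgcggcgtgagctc
FANCL (chr2:58241326-58241575, minus strand): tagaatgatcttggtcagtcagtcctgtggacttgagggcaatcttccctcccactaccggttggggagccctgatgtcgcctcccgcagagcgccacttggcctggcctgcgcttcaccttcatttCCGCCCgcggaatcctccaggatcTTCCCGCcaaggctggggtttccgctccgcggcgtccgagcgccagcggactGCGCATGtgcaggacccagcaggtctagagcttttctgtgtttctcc
EXO1 (chr1:241847954-241848203, plus strand): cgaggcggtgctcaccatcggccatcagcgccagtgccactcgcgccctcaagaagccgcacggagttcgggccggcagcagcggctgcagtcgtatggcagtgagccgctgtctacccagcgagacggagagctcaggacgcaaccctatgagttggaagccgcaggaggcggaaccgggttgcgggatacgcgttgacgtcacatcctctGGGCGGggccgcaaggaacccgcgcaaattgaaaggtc
SLX4 (chr16:3611607-3611856, minus strand): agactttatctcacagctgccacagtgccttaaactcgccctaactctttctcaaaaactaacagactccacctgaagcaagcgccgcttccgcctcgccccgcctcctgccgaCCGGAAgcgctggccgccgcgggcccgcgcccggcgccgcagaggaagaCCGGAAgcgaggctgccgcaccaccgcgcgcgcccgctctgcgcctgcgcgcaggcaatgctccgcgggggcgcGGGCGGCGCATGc
In SLX4 the SP1 match and the NRF1 match share a base. BRCA1 carries 1 CCAAT and 1 TTCCCGC match, the second on the reverse strand, and FANCL carries 1 TTCCCGC match. Among the 31 starts of these genes, CCGGAA was found in 10, against 17.9% of 22131 promoters of protein-coding genes, TTCCCGC in 6 against 6.97%, and GCGCATG in 4 against 4.54%. CCAAT was found in 10 against 32.7%, GGGCGG in 17 against 53.7%, TTTGAA in 3 against 11.0% and TTGGCGC in 0 against 3.24%. A match is only a run of letters in this window.

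Untreated and treated cells together, covered length per kb of window was highest at FANCE, with 285 bp per kb, XRCC3 with 239 and ERCC1 with 187, and lowest, after FAN1 at 0, at FANCB with 7.83 and FANCL with 9.56. Windows of short genes reach into their neighbours. At FANCE, a core complex subunit, 75.3% of the covered length lay at the ends of other genes, at UBE2T 56.4% and at FANCG 58.8%. At BRCA1, 99.7% of the covered length lay at its own 2 starts, at 43125364 and 43170327 on chromosome 17, and 69.2% lay in a region that also touches an end of another gene. RAD51B, a gene of 863 kb, held 135 of the 362 regions of all 31 windows, where a region is a merged stretch of peaks over all lists. At 12 of the genes (BRCA1, BRCA2, PALB2, BRIP1, SLX4, ERCC1, XRCC3, RAD51C, RAD50, MRE11, FANCB and FANCF), a region at the gene's own end also touched an end of another gene, and these lists cannot assign them to one gene.

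**Figure D1:**
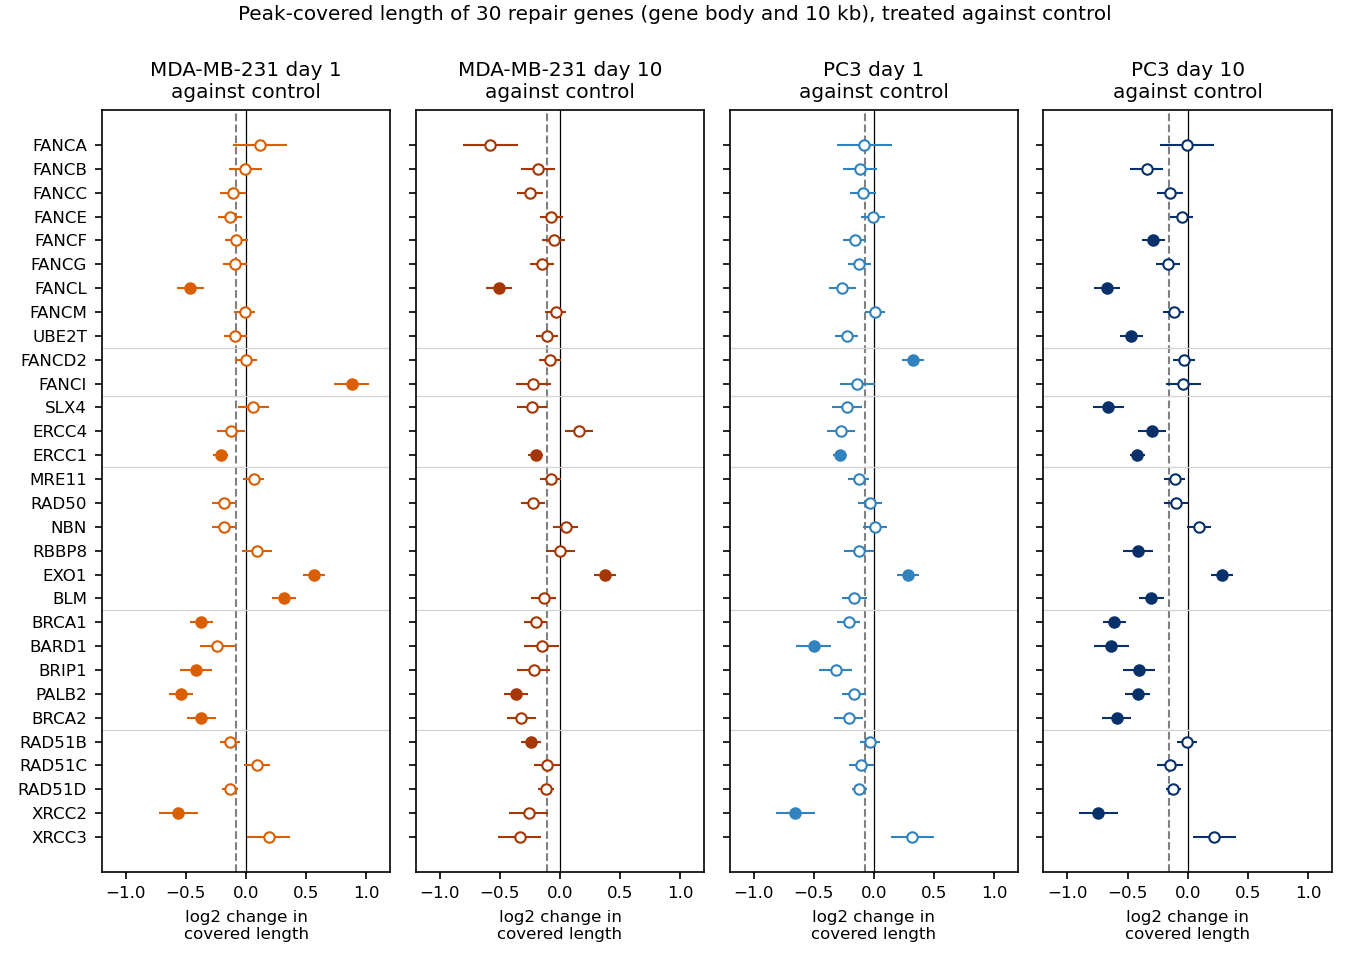
Log2 change in scaled covered length (x axis) of the 30 tested repair genes (y axis, grouped by role) in each treated group against the control of its line. Filled points were called, open points were not, bars are standard errors and the dashed line is the median of all 16812 genes; EXO1 lies right of 0 in all 4 panels and 14 genes are filled left of 0 in PC3 at day 10.

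At equal total covered length, more of these genes were called lower than higher after cisplatin in each treated group, and PC3 at day 10 had the most calls. In MDA-MB-231 at day 1, 3 of 30 genes were higher, against 10.9% of all genes, and 7 were lower, against 15.5%. At day 10, 1 was higher, against 11.0%, and 4 were lower, against 16.7%. In PC3 at day 1, 2 were higher, against 6.03%, and 3 were lower, against 7.24%. At day 10, 1 was higher, against 11.8%, and 14 were lower, against 33.1%. The median log2 change of the 30 genes was -0.10 in MDA-MB-231 at day 1, -0.17 in MDA-MB-231 at day 10, -0.12 in PC3 at day 1 and -0.23 in PC3 at day 10, beside -0.09, -0.11, -0.07 and -0.16 over all genes. In 12 of the 30 genes no treated group was called against its control over the whole window: FANCA, FANCB, FANCC, FANCE, FANCG, FANCM, MRE11, NBN, RAD50, RAD51C, RAD51D and XRCC3. Within 1 kb of the start, a measure given below, all of these but FANCG and NBN were called lower in PC3 at day 10. There 73.8% of all starts were called lower, and NBN had no listed start. Within a line, both treated groups are set against the same 3 control lists. Without scaling, higher and lower calls numbered 3 and 1 (MDA-MB-231 day 1), 1 and 1 (MDA-MB-231 day 10), 2 and 0 (PC3 day 1) and 2 and 4 (PC3 day 10), with 13.2%, 15.8%, 14.7% and 23.8% of all genes called in either direction. Under median-of-ratios scaling, which sets the median gene to no change, they were 3 and 3, 1 and 1, 2 and 2, and 1 and 8, with 18.9%, 18.6%, 11.1% and 35.3% of all genes called. With only the 50000 peaks of highest area in each list, 0, 0, 1 and 11 of the 30 genes were called, against 7.37%, 8.16%, 6.26% and 29.4% of all genes. Fitted on only the groups compared, PC3 at day 1 had 0 calls, against 6.24%. Without 1 list, calls fell to 6 in MDA-MB-231 at day 1 (without day 1 replicate 3 or control replicates 1 or 2), to 3 at day 10 (without day 10 replicate 3), and to 1 in PC3 at day 1 (without day 1 replicates 1 or 3 or control replicate 1). They were 11 to 14 in PC3 at day 10.

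Among the core complex genes, FANCL fell in 3 of the 4 treated groups. In PC3 it had scaled covered lengths of 0.773, 0.749 and 0.506 kb at day 10, against 1.33, 1.35 and 1.40 kb in control (log2 change -0.67 ± 0.11 SE, limma adjusted p = 0.000218). In MDA-MB-231 it had 0.919, 0.663 and 0.799 kb at day 1 and 0.816, 0.777 and 0.668 kb at day 10, against 1.20, 1.31 and 1.32 kb in control (log2 changes -0.46 and -0.51, limma adjusted p = 0.00628 and 0.00289). All treated lists of these groups lay below all control lists of their line. FANCL has only 2 regions, its start and a region in the gene body at chr2:58204323-58204926, and the second had 240, 548 and 500 bp in MDA-MB-231 control, 193, 0 and 197 bp at day 1 and 0 bp in the 3 lists of day 10. UBE2T, the conjugating enzyme, fell in PC3 at day 10, with 0.963, 0.858 and 0.768 kb against 1.41, 1.28 and 1.47 kb in control (log2 change -0.47, limma adjusted p = 0.00101), and the lists did not overlap. FANCF, an adaptor subunit, also fell there (log2 change -0.29, limma adjusted p = 0.0212), and its call was lost without day 10 replicate 3 (-0.26) or control replicate 3 (-0.22). FANCA was not called over its whole window in MDA-MB-231 at day 1. Its start was called lower there in 6 of 6 fits without 1 list (-0.83 to -0.57) and in 2 of 5 other settings. In the FANCA body 2 regions, at chr16:89767734-89768112 and chr16:89805463-89805874, had peaks in all 3 day 1 lists and in no other list of the 18.

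FANCI and FANCD2, the pair that the core complex modifies, were each called higher in 1 treated group. FANCI in MDA-MB-231 had 3.59, 4.11 and 5.104 kb at day 1, against 2.67, 1.40 and 2.32 kb in control, and 1.56, 1.69 and 1.88 kb at day 10. It rose at day 1 against control (log2 change 0.88 ± 0.15 SE, limma adjusted p = 0.000428) and fell at day 10 against day 1 (-1.10, limma adjusted p = 0.000405), with lists that did not overlap in either case. In PC3 it had 1.20 to 1.29 kb at day 1, against 1.37 to 1.43 kb in control, and was not called. The day 1 changes of the lines differed, with the PC3 change lower than the MDA-MB-231 change by 1.01 ± 0.21 on the log2 scale (SE, limma interaction, adjusted p = 0.00796). FANCI was the only one of the 30 genes called in that interaction, against 3.44% of all genes called lower and 1.86% called higher. Peaks of FANCI in the 3 day 1 lists of MDA-MB-231 lay at chr15:89298935-89299198, chr15:89303940-89304315 and, beyond the gene end, chr15:89321503-89322401. The third had 731, 668 and 849 bp at day 1, against 222, 0 and 0 bp in control. With only the 50000 peaks of highest area in each list the day 1 change of FANCI was -0.28 and not called, as was the -0.11 found within 1 kb of its gene ends, and its change at day 10 against day 1 was 0.19 and not called. FANCD2 rose in PC3 at day 1, with 3.61, 3.55 and 3.45 kb against 2.80, 2.42 and 2.99 kb in control (log2 change 0.32, limma adjusted p = 0.0291), and the gain included chr3:10021103-10022157 upstream, with 1035, 781 and 878 bp at day 1 and 0 bp in control. That call was lost without any 1 of day 1 replicates 1, 2 or 3 or control replicates 1 or 2 (log2 changes 0.25 to 0.34).

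EXO1, the exonuclease of long-range resection, was the only gene of the 30 called higher in all 4 treated groups. In MDA-MB-231 it had 2.19, 2.28 and 2.34 kb at day 1 and 1.94, 1.85 and 1.99 kb at day 10, against 1.53, 1.34 and 1.26 kb in control. In PC3 it had 2.34, 2.31 and 2.32 kb at day 1 and 2.37, 2.31 and 2.31 kb at day 10, against 1.86, 1.53 and 2.10 kb in control. The log2 changes in these 4 groups were 0.57, 0.38, 0.28 and 0.29, each ± 0.09 (SE, limma adjusted p = 0.000288, 0.00525, 0.0464 and 0.0158). A single upstream region, chr1:241842390-241842864, accounts for part of this in every group: the MDA-MB-231 lists had 244, 371 and 254 bp (day 1) and 242, 219 and 245 bp (day 10), the PC3 lists 255, 222 and 429 bp (day 1) and 376, 459 and 465 bp (day 10), and all 6 control lists 0 bp. At the gene ends no rise was measured: within 1 kb of them the log2 changes were -0.16, -0.06, -0.11 and -0.43, and the last one was called lower. In the gene body alone they were 0.09, 0.28, -0.17 and -0.39, and again the last one was called lower. With only the 50000 peaks of highest area in each list, PC3 at day 10 alone was called (0.34). The PC3 day 1 call was lost without any 1 of day 1 replicates 1, 2 or 3 or control replicates 1 or 2 (0.19 to 0.30), and the PC3 day 10 call without control replicate 2 (0.19).

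**Figure D2:**
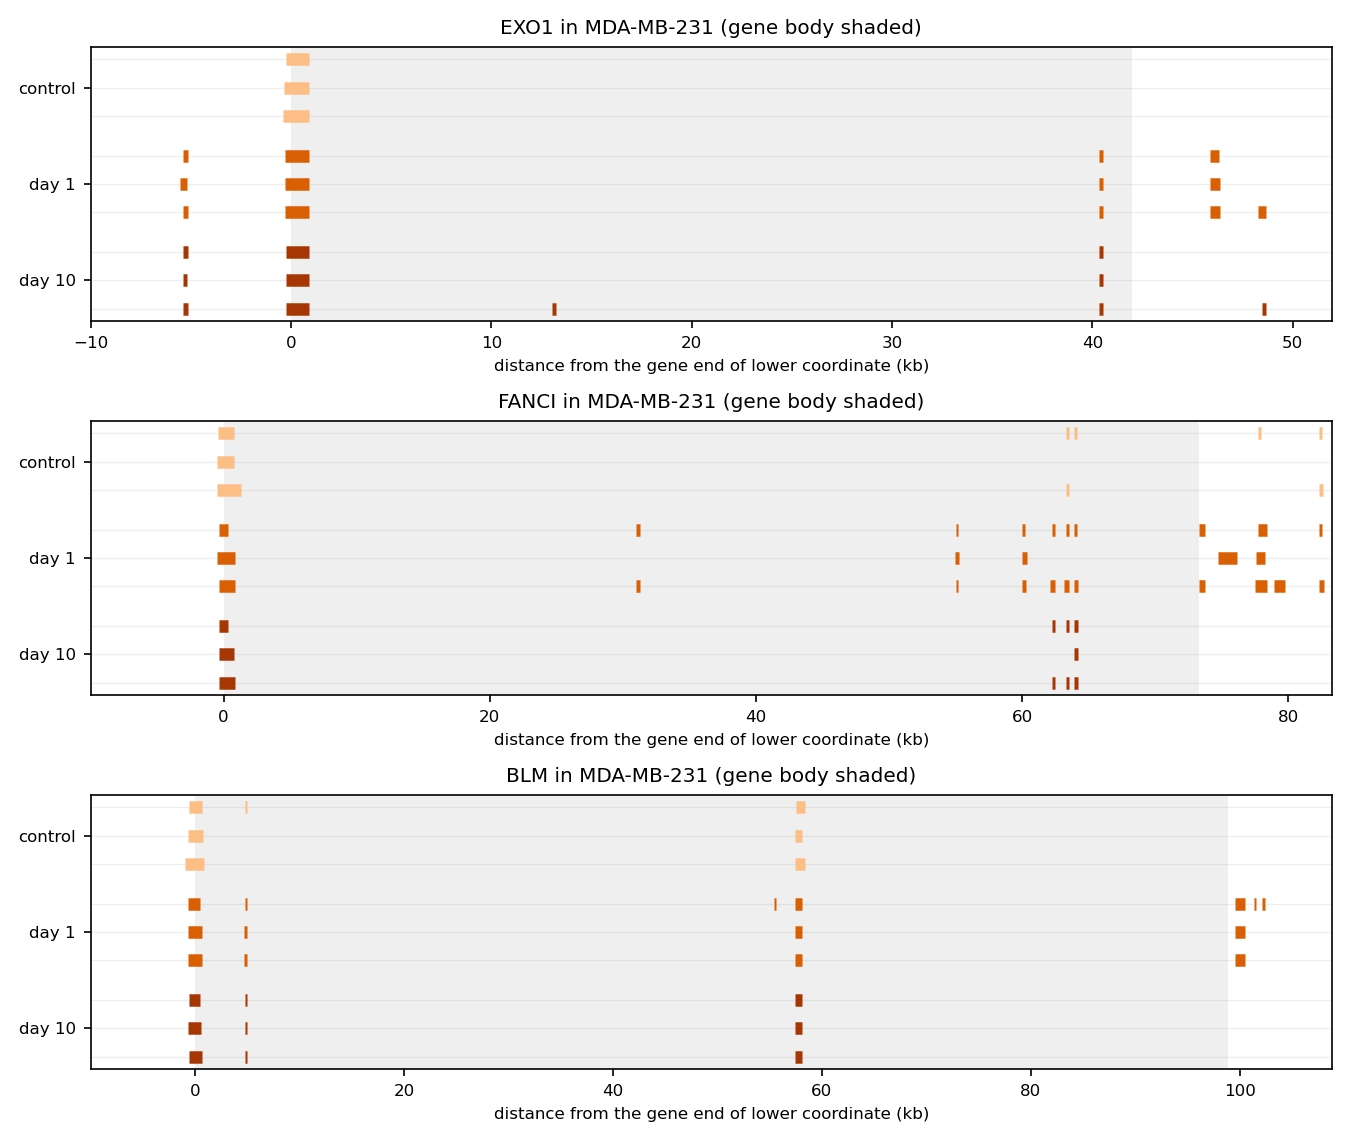
Peaks (coloured bars, drawn to scale along the x axis in kb from the gene end of lower coordinate) at EXO1, FANCI and BLM in the 9 MDA-MB-231 lists, one row per list, with the gene body shaded. The region upstream of EXO1 is present in the 6 treated rows and in no control row, and the peaks past the gene ends of FANCI and BLM are in the 3 day 1 rows and in none of day 10, those of FANCI also in 2 control rows.

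BLM, the helicase that works with EXO1 and later dissolves joint molecules, rose in MDA-MB-231 at day 1, with 3.75, 3.26 and 3.06 kb against 2.98, 2.19 and 2.67 kb in control (log2 change 0.31, limma adjusted p = 0.0311). It was lower at day 10 than at day 1, with 2.36, 2.46 and 2.15 kb at day 10 (log2 change -0.45, limma adjusted p = 0.0145). The gain was 1 region past the gene end, chr15:90816872-90817821, with 934, 922 and 942 bp at day 1 and 0 bp in the other 15 lists, and with the gene body alone the change was -0.09. With the 50000 peaks of highest area the change of BLM was -0.084 at day 1 against control and 0.061 at day 10 against day 1, neither called. The call at day 1 was lost without any 1 of day 1 replicates 1 or 2 or control replicates 2 or 3 (0.21 to 0.33), and the call of day 10 against day 1 without day 1 replicate 1 (-0.38) or day 10 replicate 3 (-0.40). In PC3 at day 10 BLM fell, with 1.59, 1.31 and 1.61 kb against 2.00, 1.95 and 1.95 kb in control (log2 change -0.30, limma adjusted p = 0.0225), a call lost without day 10 replicate 2 (-0.23) or control replicate 1 (-0.29). RBBP8 fell there too (-0.41, limma adjusted p = 0.0132), a call lost without day 10 replicate 1 (-0.30) or control replicate 2 (-0.32). Over the whole window MRE11, RAD50 and NBN, the complex that senses and trims broken ends, were called in no treated group (log2 changes -0.23 to 0.09). The starts of RAD50 and MRE11 were called lower in PC3 at day 10, where 73.8% of all starts were. Both calls held in 6 of 6 fits without 1 list (-0.60 to -0.52 and -0.44 to -0.37). Neither start was called under median-of-ratios scaling.

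**Figure D3:**
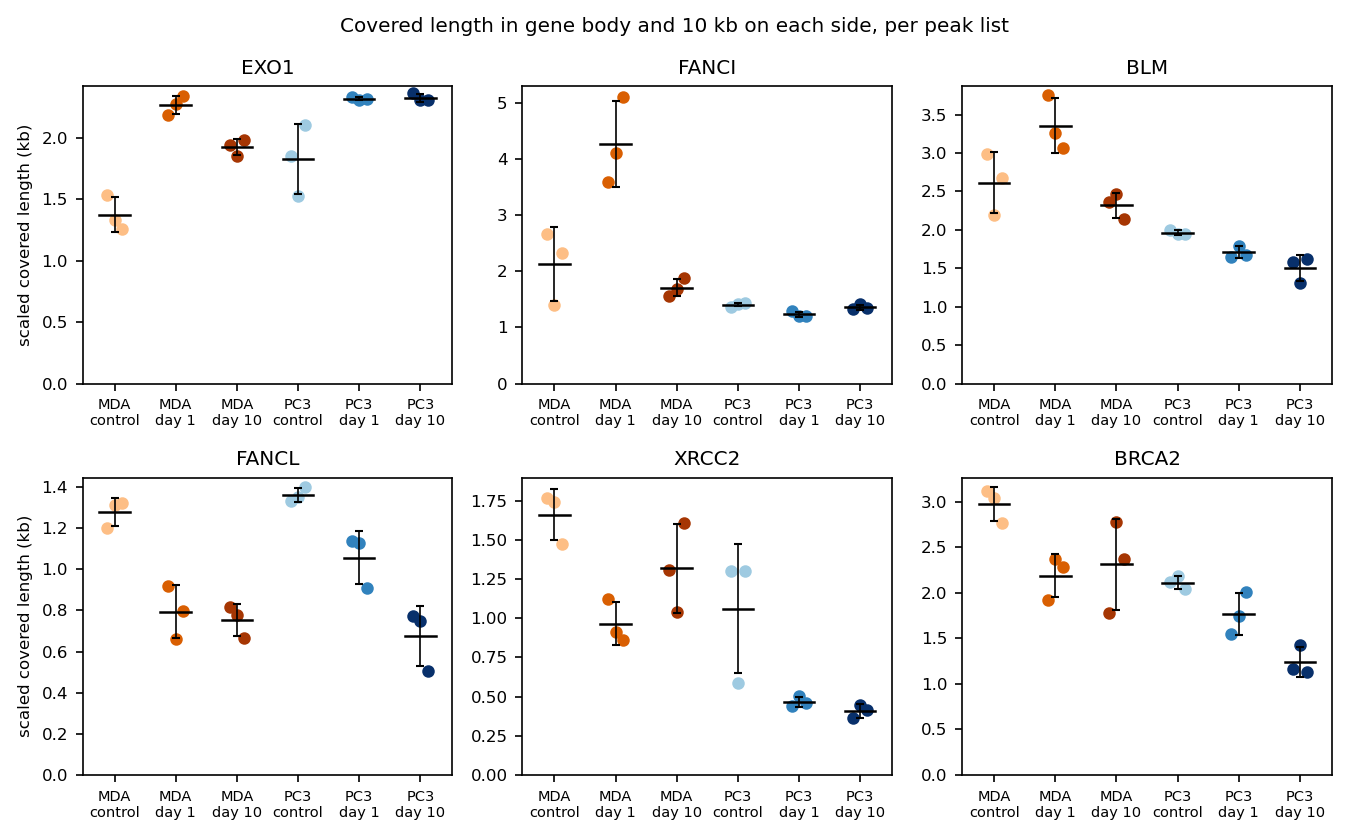
Scaled covered length in kb (y axis, from 0) of EXO1, FANCI, BLM, FANCL, XRCC2 and BRCA2 in each of the 18 peak lists by group (x axis, controls at the left of each line); points are lists, horizontal lines means and bars SDs of 3 lists. FANCI is between 3.59 and 5.104 kb in the day 1 lists of MDA-MB-231 and at or under 2.67 kb in the other 15.

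A second trait of MDA-MB-231 at day 1 was new peaks near the 3′ ends of genes. Counting regions present in all 3 treated lists and in no control list (gained) from 1 kb before to 10 kb past the last base, 7 of the 29 members with a known strand had one, against 9.69% of 15812 genes. These were UBE2T, EXO1, FANCD2, XRCC2, XRCC3, BLM and RBBP8. At day 10 of MDA-MB-231 there were 3 (UBE2T, XRCC2 and RBBP8), against 6.99%. In PC3 there was 1 at day 1 (RBBP8), against 6.48%, and there were 2 at day 10 (XRCC3 and RBBP8), against 10.9%. With only the 50000 peaks of highest area the day 1 count was 2. At XRCC2, chr7:152644055-152644440 had 345, 360 and 372 bp at day 1 and 323, 321 and 336 bp at day 10, and 0 bp in control. At FANCD2, chr3:10100580-10101166 had 191, 586 and 464 bp at day 1 and 0 bp in the other 15 lists.

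Among the incision factors, ERCC1, the partner that holds ERCC4 on DNA, fell in all 4 treated groups. MDA-MB-231 lists had 15.3, 15.1 and 14.7 kb (day 1) and 15.7, 15.1 and 14.6 kb (day 10), against 18.4, 17.3 and 16.7 kb in control. In PC3 it had 8.38, 8.54 and 8.09 kb at day 1 and 7.39, 7.47 and 7.73 kb at day 10, against 10.2, 9.62 and 10.9 kb in control. The log2 changes were -0.21, -0.20, -0.28 and -0.42, each ± 0.06 (SE, limma adjusted p = 0.0190, 0.0213, 0.00860 and 7.95e-05). The MDA-MB-231 calls were lost without day 1 replicate 3 (-0.20) or control replicate 1 (-0.17) at day 1, and without day 10 replicates 2 or 3 or control replicate 1 (-0.16 to -0.20) at day 10. An ERCC1 region at chr19:45427503-45429810 was lost in PC3 at day 10, with 0 bp in the 3 lists, against 228, 717 and 236 bp in control. Without scaling the 4 changes of ERCC1 ranged from -0.01 to -0.21 and none was called. SLX4, the scaffold of the nucleases, fell in PC3 at day 10, with 0.838, 0.967 and 0.830 kb against 1.89, 1.40 and 1.78 kb in control (log2 change -0.66 ± 0.13 SE, limma adjusted p = 0.000719). In MDA-MB-231 it had 2.90, 2.59 and 1.82 kb at day 1, against 2.41, 2.35 and 2.10 kb in control, which overlapped. ERCC4, the nuclease itself, fell in PC3 at day 10 (-0.30, limma adjusted p = 0.0448), a call lost without any 1 of day 10 replicates 2 or 3 or control replicates 1, 2 or 3 (-0.22 to -0.32).

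The 5 genes of the BRCA group were all called lower in PC3 at day 10, where 33.1% of all genes were, and 4 of them in MDA-MB-231 at day 1, where 15.5% were. BRCA1 had 2.08, 2.52 and 2.91 kb in PC3 at day 10, against 4.05, 3.79 and 4.33 kb in control (log2 change -0.61 ± 0.10 SE, limma adjusted p = 0.000155). At day 1 it had 3.32, 3.75 and 3.27 kb, and day 10 was lower than day 1 (-0.40, limma adjusted p = 0.0171), a call lost without day 1 replicate 2 (-0.35) or day 10 replicate 1 (-0.30). In MDA-MB-231 it had 4.74, 5.20 and 4.71 kb at day 1, against 7.15, 6.27 and 6.00 kb in control (-0.37, limma adjusted p = 0.0103), a call lost without control replicate 1 (-0.30). BARD1, the partner of BRCA1, fell in PC3 at day 10, with 0.920, 1.62 and 0.904 kb against 1.90, 2.26 and 1.89 kb in control (-0.64, limma adjusted p = 0.00241). It also fell in PC3 at day 1 (-0.50, limma adjusted p = 0.0328), a call lost without any 1 of day 1 replicates 1 or 3 or control replicates 1, 2 or 3 (-0.40 to -0.54).

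BRCA2, which acts on resected single-stranded DNA, had 1.16, 1.43 and 1.13 kb in PC3 at day 10, against 2.11, 2.18 and 2.04 kb in control (log2 change -0.59, limma adjusted p = 0.00114). A BRCA2 region at chr13:32320520-32320906 had 0 bp in the 3 PC3 lists of day 10 and 324, 387 and 302 bp in control. PALB2, the bridge between BRCA1 and BRCA2, fell in MDA-MB-231 at day 1, with 2.47, 2.72 and 2.40 kb against 3.85, 3.95 and 3.93 kb in control (-0.54 ± 0.10 SE, limma adjusted p = 0.00105), and in PC3 at day 10, with 1.88, 2.44 and 1.74 kb against 3.13, 2.77 and 2.64 kb (-0.42, limma adjusted p = 0.00353). Its lower value in MDA-MB-231 at day 10 (-0.36, limma adjusted p = 0.0131) lost the call without day 10 replicate 3 (-0.32). BRCA2 (-0.37, limma adjusted p = 0.0326) and the helicase BRIP1 (-0.41, limma adjusted p = 0.0327) were called lower in MDA-MB-231 at day 1 too. BRCA2 lost that call without day 1 replicates 1 or 3 or control replicates 1 or 2 (-0.30 to -0.40), and BRIP1 without day 1 replicates 1 or 3 or control replicates 2 or 3 (-0.33 to -0.42). BRIP1 fell in PC3 at day 10 as well (-0.41, limma adjusted p = 0.0222), a call lost without any 1 of day 10 replicates 1 or 3 or control replicates 2 or 3 (-0.34 to -0.39).

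Of RAD51B, RAD51C, RAD51D, XRCC2 and XRCC3, XRCC2 had the largest called changes against control. In PC3 it had 0.440, 0.504 and 0.457 kb at day 1 and 0.363, 0.449 and 0.417 kb at day 10, against 1.30, 0.586 and 1.30 kb in control (log2 changes -0.65 ± 0.16 and -0.74 ± 0.16 SE, limma adjusted p = 0.0174 and 0.00184). The second control list lay nearest to the treated lists. In MDA-MB-231 at day 1 it had 1.12, 0.911 and 0.864 kb, against 1.77, 1.74 and 1.47 kb in control (-0.56, limma adjusted p = 0.0191). The day 1 calls were lost without day 1 replicates 2 or 3 or control replicates 1 or 2 in MDA-MB-231 (-0.51 to -0.54), and without day 1 replicates 1 or 3 or control replicates 1 or 3 in PC3 (-0.53 to -0.65). RAD51B fell in MDA-MB-231 at day 10, with 30.8, 33.1 and 36.8 kb against 38.1, 42.2 and 38.9 kb in control (-0.24, limma adjusted p = 0.0363), a call lost without any 1 of day 10 replicates 1 or 2 or control replicates 2 or 3 (-0.18 to -0.26). RAD51C, RAD51D and XRCC3 were called in no treated group over the whole window.

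At the starts themselves covered length was lower after cisplatin once lists were scaled to equal totals, at these genes as at most others. Within 1 kb of the start, a window of 2001 bp, covered length was tested at 29 starts of 27 member genes, a measure added after the data were seen. All 29 changes were below 0 in each of the 4 comparisons with control, as were most of all 11905 starts. Of these, 10726 were below 0 in MDA-MB-231 at day 1, 10087 in MDA-MB-231 at day 10, 10270 in PC3 at day 1 and 10733 in PC3 at day 10. Lower starts numbered 16 in MDA-MB-231 at day 1, against 33.1% of all starts, 4 at day 10, against 7.32%, 14 in PC3 at day 1, against 39.3%, and 27 in PC3 at day 10, against 73.8%. None was called higher, against 1.80%, 1.25%, 1.64% and 1.92% of all starts. The median log2 change of the 29 starts in PC3 at day 10 was -0.39, beside -0.30 over all 11905 starts. Scaling by the median of ratios, which sets the median start to no change, left 2, 0, 0 and 5 lower member starts, against 2.69%, 1.43%, 0.295% and 10.3% of all starts, and no scaling left 2, 0, 0 and 11, against 6.10%, 4.12%, 0.244% and 21.1%. With the 50000 peaks of highest area they were 1, 0, 1 and 12, against 2.59%, 1.57%, 1.47% and 19.6%. Without PC3 control replicate 3, the PC3 day 1 count was 0, and without MDA-MB-231 day 1 replicate 3 or control replicate 1 the MDA-MB-231 day 1 count was 8.

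**Figure D4:**
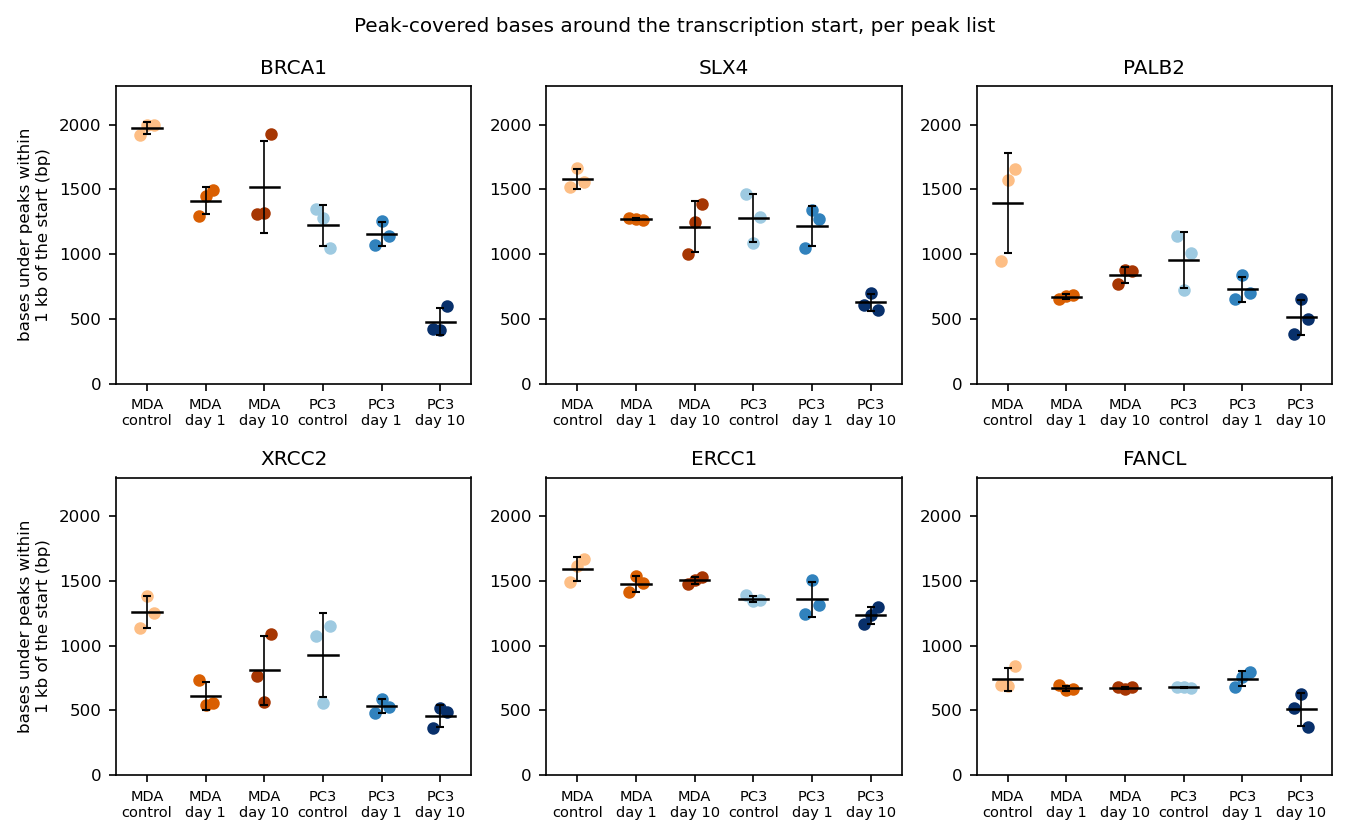
Bases under peaks within 1 kb of the start (y axis, bp, unscaled, from 0) for BRCA1, SLX4, PALB2, XRCC2, ERCC1 and FANCL in each of the 18 lists by group (x axis); points are lists, horizontal lines means and bars SDs of 3 lists. The PC3 day 10 lists of BRCA1 lie between 412 and 602 bp, below the 15 others.

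The 5 starts still called lower in PC3 at day 10 under median-of-ratios scaling were those of BRCA1, SLX4, PALB2, BRCA2 and XRCC2. Those of SLX4, PALB2 and BRCA2 lie in end regions shared with another gene. At BRCA1 the region shared with another protein-coding gene lies at its other start, 43170327. Sharing with non-coding genes was not looked at, so the start at 43125364 may not belong to BRCA1 alone. At the BRCA1 start at 43125364, whose upstream sequence is shown above, peaks covered 422, 412 and 602 bp in PC3 at day 10, against 1347, 1281 and 1045 bp in control (log2 change -0.96 ± 0.09 SE, limma adjusted p = 1.1e-06). PC3 at day 1 had 1072, 1259 and 1141 bp there. In MDA-MB-231 peaks covered 1294, 1451 and 1496 bp at day 1 and 1309, 1319 and 1929 bp at day 10, against 1919, 2001 and 2001 bp in control, where the window was full in 2 lists. The other BRCA1 start, at 43170327, had 1172, 1550 and 1984 bp in PC3 at day 10, against 1654, 1539 and 1874 bp in control, which overlapped. At equal total covered length it was called lower (-0.29, limma adjusted p = 0.0258), in 3 of 6 fits without 1 list (-0.40 to -0.20), and it was not called without scaling (-0.097) or under median-of-ratios scaling (0.055). The SLX4 start had 610, 700 and 569 bp in PC3 at day 10, against 1462, 1087 and 1287 bp in control (-0.81 ± 0.09 SE, limma adjusted p = 1.49e-05). The PALB2 start had 381, 653 and 499 bp, against 1140, 720 and 1012 bp in control (-0.67, limma adjusted p = 0.000316). In MDA-MB-231 at day 1 it had 652, 678 and 687 bp, against 948, 1576 and 1657 bp in control (-0.78, limma adjusted p = 0.000304). All of these starts kept a peak in all 18 lists.

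The day 10 changes of the lines differed at 3 member starts, all lower in PC3, against 11.7% of all starts. At the BRCA1 start the PC3 change was lower than the MDA-MB-231 change by 0.65 ± 0.12 on the log2 scale (SE, limma interaction, adjusted p = 0.00324), and it was called without each of the 12 lists in turn. It was not called without scaling (-0.51, adjusted p = 0.0885 in limma) or with the 50000 peaks of highest area (-0.54). The SLX4 start differed by -0.52 (limma interaction, adjusted p = 0.0202) and the XRCC3 start by -0.52 (adjusted p = 0.0283 in the same fit), and neither was called without scaling or under median-of-ratios scaling (-0.30 to -0.37). SLX4 lost the call without MDA-MB-231 day 10 replicate 2, MDA-MB-231 control replicate 3 or PC3 control replicates 1 or 3 (-0.45 to -0.49). XRCC3 lost it without MDA-MB-231 day 10 replicates 1 or 2, MDA-MB-231 control replicates 2 or 3, PC3 day 10 replicate 3 or PC3 control replicates 1 or 3 (-0.45 to -0.50). Over the whole window only BRCA1 was called in this interaction (-0.41, limma adjusted p = 0.04999, just under the threshold), against 10.6% of all genes lower and 5.82% higher. That call was lost in 9 of 12 fits without 1 list (-0.30 to -0.42).

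Between day 10 and day 1, 2 of the 30 genes were called in MDA-MB-231, both lower, FANCI and BLM, against 3.24% of all genes lower and 2.14% higher. In PC3, 4 were called, all lower, against 5.47% lower and 2.18% higher: FANCL (-0.41), FANCD2 (-0.35), SLX4 (-0.44) and BRCA1 (-0.40). Each of these 4 lost its call in at least 2 of 6 fits without 1 list, namely without day 1 replicates 1 or 2 or day 10 replicate 3 for FANCL (-0.30 to -0.38), all lists but day 10 replicate 2 for FANCD2 (-0.30 to -0.37), and all but day 1 replicate 1 for SLX4 (-0.38 to -0.48). With replicate numbers as a block, which the lists of these groups allow, SLX4 was not called (limma adjusted p = 0.0516).

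Of the 362 regions in the 31 windows, 99 were in all 18 lists, against 19.8% of all regions. PC3 alone had 30, in its 9 lists and in no MDA-MB-231 list, against 6.14%, and MDA-MB-231 alone had 3, against 2.59%. Leaving out RAD51B, PC3 alone had 15 of 227 regions. Against control, MDA-MB-231 gained 21 at day 1, against 5.06%, and 10 at day 10, against 6.50%, and PC3 gained 12 at day 1, against 3.51%, and 29 at day 10, against 8.58%. Of the 227 regions outside RAD51B, 16, 8, 6 and 16 were gained in these groups. Without day 1 replicate 2 the PC3 day 1 gains were 26, and without day 10 replicate 2 or control replicate 1 the MDA-MB-231 day 10 gains were 18. Leaving out a list can only keep or raise the number of gains. Losses were 1, 2, 2 and 4 in the same order, against 0.436%, 0.582%, 0.331% and 1.07%. Gains at day 1 of MDA-MB-231 with no peak in any day 10 list numbered 12, in 8 genes, against 1.07%. Regions gained in all 4 treated groups numbered 2, against 0.231%: the one upstream of EXO1 and chr18:23031984-23032702 downstream of RBBP8. In MDA-MB-231 the RBBP8 region had 317, 506 and 480 bp (day 1) and 268, 322 and 288 bp (day 10), and in PC3 498, 566 and 559 bp (day 1) and 565, 683 and 555 bp (day 10), against 0 bp in the 6 control lists.

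**Figure D5:**
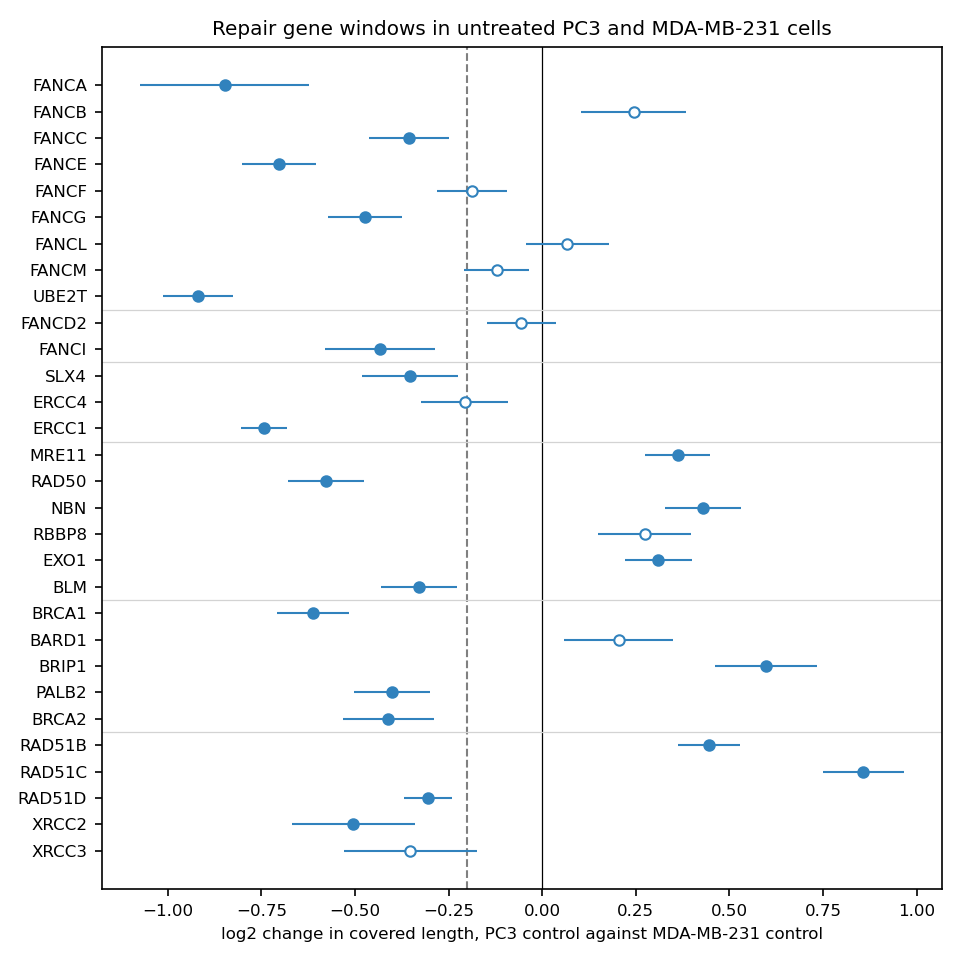
Log2 change in scaled covered length (x axis) of the 30 tested genes (y axis, grouped by role) in PC3 control against MDA-MB-231 control. Filled points were called, open points were not, bars are standard errors and the dashed line is the median of all genes, -0.20; RAD51C is furthest right at 0.86 and UBE2T furthest left at -0.92.

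The untreated lines differed at 21 of the 30 genes, of which 6 were higher in PC3, against 21.0% of all genes, and 15 were lower, against 44.3%. UBE2T had 1.41, 1.28 and 1.47 kb in PC3 control, against 2.66, 3.36 and 3.20 kb in MDA-MB-231 control (log2 change -0.92 ± 0.09 SE, limma adjusted p = 2.09e-07). ERCC1 had 10.2, 9.62 and 10.9 kb, against 18.4, 17.3 and 16.7 kb (-0.74 ± 0.06 SE, limma adjusted p = 1.28e-08). RAD50 (-0.58), FANCG (-0.47), FANCE (-0.70) and BRCA1 (-0.61) were lower in PC3 as well, and for FANCE the gene body alone gave -0.11. RAD51C had 2.72, 2.79 and 2.62 kb in PC3 control, against 1.63, 1.17 and 1.06 kb in MDA-MB-231 control (0.86 ± 0.11 SE, limma adjusted p = 2.21e-06), with the difference outside the gene body, where the body alone gave -0.06. RAD51B had 49.1, 62.1 and 52.4 kb, against 38.1, 42.2 and 38.9 kb (0.45 ± 0.08 SE, limma adjusted p = 0.000146). BRIP1 had 4.35, 5.34 and 4.97 kb, against 2.47, 3.49 and 3.26 kb (0.60, limma adjusted p = 0.000921). NBN (0.43), MRE11 (0.36) and EXO1 (0.31) were the other genes higher in PC3, and the lists overlapped for EXO1 and FANCI. The other genes lower in PC3 were FANCA (-0.85), XRCC2 (-0.50), FANCI (-0.43), BRCA2 (-0.41), PALB2 (-0.40), FANCC (-0.36), SLX4 (-0.35), BLM (-0.33) and RAD51D (-0.30). Calls were lost without 1 list for XRCC2 (PC3 control replicate 2, -0.26), FANCI (MDA-MB-231 control replicates 1 or 3, -0.28 and -0.37), BLM (MDA-MB-231 control replicate 1, -0.25) and SLX4 (MDA-MB-231 control replicates 1 or 2 or PC3 control replicate 2, -0.26 to -0.33). Under median-of-ratios scaling 9 genes were higher and 7 lower in PC3, with 59.6% of all genes called, and with the 50000 peaks of highest area 5 were higher and 7 lower, with 47.9%. FANCC was higher in PC3 when the gene body alone was counted (0.54).

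Of 52 other genes of crosslink repair and recombination, 51 were tested. In MDA-MB-231, 2 were higher and 15 lower at day 1, against 10.9% and 15.5% of all genes, and 0 higher and 11 lower at day 10, against 11.0% and 16.7%. In PC3, 1 was higher and 10 lower at day 1, against 6.03% and 7.24%, and 2 higher and 25 lower at day 10, against 11.8% and 33.1%. Their median log2 changes were -0.19, -0.20, -0.13 and -0.23 in these groups, beside the all-gene medians given above. The 3 genes with the smallest adjusted p in each of these comparisons are named, with their log2 change wherever they were called. POLN, a translesion polymerase, was called in MDA-MB-231 (day 1 -0.49, day 10 -0.64), as was DCLRE1B (day 1, 0.38). SHLD2, a shieldin subunit that limits resection, was called in all 4 treated groups (MDA-MB-231 day 1 -0.52, day 10 -0.69; PC3 day 1 -0.62, day 10 -0.52), and so was RPA1, which coats single-stranded DNA (MDA-MB-231 day 1 -0.41, day 10 -0.66; PC3 day 1 -0.41, day 10 -0.57). EME1, a partner of the nuclease MUS81, was called in PC3 (day 1 1.40, day 10 1.61), as was SHLD3, another shieldin subunit (day 1 -0.67, day 10 -1.37). The PC3 control lists of EME1 were spread, at 2.42, 0.992 and 1.11 kb. SHLD3 had 0.248, 0.224 and 0 kb in PC3 at day 10, below the 500 bp offset, against 1.13, 1.13 and 1.25 kb in control. Calls of these other pathway genes were not refitted without 1 list or under other settings. The checkpoint kinase CHEK2 was called in 3 groups (MDA-MB-231 day 1 -0.28; PC3 day 1 -0.37, day 10 -0.79), and so was the recombination factor RAD51AP1 (MDA-MB-231 day 1 -0.47, day 10 -0.62; PC3 day 10 -0.81). CHEK2 had 2.49, 2.61 and 2.15 kb in PC3 at day 10, against 4.74, 4.44 and 4.43 kb in control (limma adjusted p = 1.66e-06), and the lists did not overlap. Between the untreated lines 7 were higher and 23 lower in PC3, against 21.0% and 44.3% of all genes, and the smallest adjusted p were those of RPA1 (-1.52), SEM1 (1.18) and POLN (-0.72). Between day 10 and day 1, 0 were higher and 2 lower in MDA-MB-231, against 2.14% and 3.24%, and 0 higher and 6 lower in PC3, against 2.18% and 5.47%.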

How the data were processed

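ATAC-seq was run in 54 samples, and the authors deposited 18 narrowPeak lists, 1 per biological replicate, on hg38/GRCh38. Tools listed in the submitters' processing notes include Genrich 0.6.2 and Bowtie2 2.3.5.1, with SAMtools 1.6, Picard and FastQC 0.12.1. Thresholds and how the 3 parts of a replicate were combined are not given in the sources used here. The deposited score in column 7, which was read as peak area from its values, served only to rank peaks within a list.

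Bases under peaks were summed per gene (body and 10 kb on each side) and scaled to the mean total covered length. limma 3.58.1 (R 4.3.3, variance trend) was fitted on log2(bp + 500) over all 18 lists, for genes that reached 500 bp in 3 or more lists, with Benjamini-Hochberg adjustment over all genes. Interactions were contrasts of the same fit. The code was tested on simulated data. Python 3.11.15, pandas 2.3.3, numpy 2.4.6 and matplotlib 3.10.9 did the rest.

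The members and lists were chosen with earlier results of these data known. Per-list values are given for called members, at most 6 per comparison by adjusted p, with further members added after their values were seen. Other pathway genes were limited to 3 per comparison. The measures at starts and past the last base were added after the data were seen. Same-numbered lists deviated together (every correlation over 0.1) in MDA-MB-231 at day 1 against control (0.193 to 0.389), MDA-MB-231 at day 10 against day 1 (0.197 to 0.419) and PC3 at day 10 against day 1 (0.132 to 0.345). The reported fits used group means only and left this pairing out. Replicate numbers entered only in the alternative fit that used them as a block. P-values of the reported fits rest on the spread between the 3 lists of a group, pooled over all groups of both lines. They do not measure the spread in the compared groups alone. Some genes of the marker list are not reported here.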

Additional observations from a re-analysis of the deposited data

Results flagged for a closer look

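Differences between the cell lines in the response to cisplatin, tested as interactions in limma, were called at 2 genes and 3 starts. These were 1 of 30 genes at day 1, against 3.44% of all genes lower and 1.86% higher, 1 of 30 genes at day 10, against 10.6% lower and 5.82% higher, and 3 of 29 starts at day 10, against 11.7% of all starts lower. The day 1 change of FANCI was lower in PC3 than in MDA-MB-231, by -1.01 on the log2 scale (SE 0.21, limma adjusted p = 0.00796), and the value was 0.04 with only the 50000 peaks of highest area. BRCA1 over its whole window differed at day 10 by -0.41 (SE 0.14, limma adjusted p = 0.04999). The BRCA1 start differed at day 10 by -0.65 (SE 0.12, limma adjusted p = 0.00324), the SLX4 start by -0.52 (SE 0.13, limma adjusted p = 0.0202) and the XRCC3 start by -0.52 (SE 0.14, limma adjusted p = 0.0283). Each of these was lower in PC3, and the XRCC3 start window was full, at 2001 bp, in all MDA-MB-231 control lists. The numbers of peaks differed between lists of the 2 lines, and the part of that in these differences was not tested.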

How the results depend on the processing

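Of 64 calls of member genes, 35 held without each list in turn, and 7 held under every alternative that gave a value (for UBE2T the gene body alone gave none): FANCL, SLX4 and BRCA1 in PC3 at day 10 against control, and UBE2T, RAD50, FANCG and ERCC1 between the untreated lines. The cause of the changes below was not tested. Numbers of members called follow, with comparisons in the order MDA-MB-231 day 1, MDA-MB-231 day 10, PC3 day 1 and PC3 day 10 against control, MDA-MB-231 and PC3 day 10 against day 1, PC3 against MDA-MB-231 control, and the day 1 and day 10 interactions. Reported counts were 10, 5, 5, 15, 2, 4, 21, 1 and 1. Each run of moved counts keeps this order but skips the comparisons that did not move. An unlabelled value in such a run therefore cannot be placed by its position alone. Those moved by over 1.5 times were, with the 50000 peaks of highest area, 0, 0, 1, 0 (MDA-MB-231 day 10 against day 1), 12, 0 and 3. Without scaling they were 4, 2, 2, 6, 2 (PC3 day 10 against day 1) and 0 (day 10 interaction). Under median-of-ratios scaling they were 6, 2, 9 (PC3 day 10), 1 (PC3 day 10 against day 1), 2 and 0. With the gene body alone they were 6, 3, 2, 1, 2, 0 and 6, and within 1 kb of gene ends 3, 8, 24, 0, 1, 11 and 0. With only the groups compared they were 0 (PC3 day 1), 0 (PC3 day 10 against day 1) and 0 (day 10 interaction), and with an offset of 100 bp 2 (day 10 interaction). Without 1 list they ranged from 6 to 8, 3 to 5, 1 to 4, 11 to 14, 1 to 3, 0 to 5, 19 to 23, 1 to 2 and 0 to 3.

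Lower member starts (16, 4, 14 and 27 against control, 3 in the day 10 interaction) were 1, 0, 1, 12 and 5 with the 50000 peaks, 2, 0, 0, 11 and 0 unscaled, 2, 0, 0, 5 and 1 under median-of-ratios scaling, and 6 in the interaction with the smaller offset. Without 1 list they ranged from 8 to 16, 1 to 3, 0 to 16, 22 to 28 and 1 to 8. With the 50000 peaks, members with a gene-end peak differed by -2.00 in PC3 at day 1 and -6.67 at day 10, gained regions were 4, 2, 1 and 3, and members gaining one past the last base in MDA-MB-231 at day 1 were 2. Without 1 list, the gene-end difference was 0 throughout, and gained regions ranged from 21 to 31, 10 to 18, 13 to 26 and 31 to 41. Leaving out a list relaxes the rule for a gain, so these counts could only stay or rise and do not measure stability.

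Log2 changes that turned sign within 1 kb of gene ends were EXO1 (-0.16, -0.062, -0.11 and -0.43 in the 4 treated groups, -0.15 between lines), FANCI (-0.11) and BLM (-0.053) in MDA-MB-231 at day 1, FANCD2 in PC3 at day 1 (-0.18), and NBN (-0.027), RAD51B (-0.059) and BRIP1 (-0.0013) between lines. With the 50000 peaks they were FANCI (-0.28) and BLM (-0.084) in MDA-MB-231 at day 1, FANCI (0.19) and BLM (0.061) at day 10 against day 1, and FANCI between lines (0.033) and in the day 1 interaction (0.044). With the gene body alone they were BLM in MDA-MB-231 at day 1 (-0.094), EXO1 in PC3 at day 1 (-0.17) and day 10 (-0.39), and EXO1 (-0.056), NBN (-0.090), FANCC (0.54) and RAD51C (-0.065) between lines.

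With replicate numbers as a block, 62 of the 64 calls held. ERCC4 in PC3 at day 10 against control (limma adjusted p = 0.0655) and SLX4 in PC3 at day 10 against day 1 (limma adjusted p = 0.0516) were lost. The block gave 3 members and 6 starts in the day 10 interaction.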
